A study of Mus musculus with 4 samples.

Results

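The genes that open the G1 phase of the cell cycle were followed on microarrays of IL-10 producing and non-producing CD4+CD25+ T-cells of the mouse. The 10 genes were the D cyclins Ccnd2 and Ccnd3, the kinases Cdk2, Cdk4 and Cdk6, the kinase inhibitors Cdkn1a, Cdkn1b, Cdkn2c and Cdkn2d, and Rb1. A probe set is a group of short probes that together read 1 stretch of a transcript, and every probe set that the platform annotation assigns to 1 of these symbols alone was taken. All 10 genes, of 18193 named on the array, were measured, by 26 of its 45037 probe sets that are not controls, from 1 for Cdkn2c to 7 for Ccnd2, and no filter on dim values was applied.

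D cyclins rise when a T-cell is stimulated and activate Cdk4 and Cdk6, which phosphorylate the retinoblastoma protein encoded by Rb1 and so release E2F transcription factors. Cdk2, with cyclin E, completes this step and starts DNA replication. The INK4 inhibitors Cdkn2c and Cdkn2d bind Cdk4 and Cdk6, whereas the CIP/KIP inhibitors Cdkn1a and Cdkn1b mainly block Cdk2, and Cdkn1b is known as a brake on T-cell division.

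All 4 samples came from C57BL/6 mice aged 6 to 12 weeks that had received the CD28 superagonist D665 intraperitoneally, an antibody that activates T-cells and expands regulatory T-cells (Treg). On day 3 the CD4+CD25+ cells of their lymph nodes were taken and, per the labels, kept overnight with antibodies to CD3 (2 µg/ml) and CD28 (5 µg/ml) and with recombinant IL-2 (200 U/ml). They were then sorted by secreted IL-10 into 2 IL-10+ and 2 IL-10- samples, so that both groups had been treated alike. How many mice or sorts stand behind a sample is not given in the sources used here, so p-values reflect only the spread among the 4 samples, part of which may be technical. The gate on CD25 takes Treg and other activated CD4+ T-cells alike.

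Each sample was hybridized to 1 array, and the deposited values are on a log scale. The sources do not name the base of the deposited values, though legends of the study give differences on these arrays as natural logs of the fold change. The values were read as log2, and where a fold is given, the fold that natural logs would give follows it. A probe set was called higher or lower in IL-10+ cells at an adjusted p under 0.05 (limma, Benjamini-Hochberg over all probe sets). This took 6133 probe sets, 13.6%, as higher and 7307, 16.2%, as lower. With each array centred on its median these counts were 4668 and 10076, without IL-10+ replicate 2 the higher count was 3994, and without IL-10+ replicate 1 the lower count was 4676. Il10, the gene of the sort, read 12.02 and 12.00 on the IL-10+ arrays and 10.41 and 10.37 on the others. The 9 T-cell and Treg markers lay between 10.06 and 13.49, and 3 were higher (Ctla4 by 0.87, Cd4 by 0.51 and Cd3g by 0.41) and 2 lower (Foxp3, at -0.72, and Ikzf2, at -0.55). Each marker was read by its brightest probe set. Over all 13 probe sets of these markers 6 were higher and 3 lower, and Ikzf2 also had a probe set called higher, against its brightest one. The summed level of the 9 brightest probe sets was 43576 to 44182 on IL-10+ and 39410 to 42721 on IL-10- arrays. Among markers of B cells and plasma cells 9 of 10 were lower, and their summed level on the linear scale was 1023 to 1024 on IL-10+ and 9114 to 9713 on IL-10- arrays. Igha, at 7.18 and 7.24 on IL-10+ and 12.58 and 12.74 on IL-10- arrays, made up most of the IL-10- sums. For NK cells 3 of 5 were lower (2282 to 2450 against 3727 to 3931), for CD8 T-cells 1 of 2 was lower (304 to 320 against 349 to 382), and for myeloid and dendritic cells 2 of 9 were higher (818 to 830 against 748 to 763). Gzma, at 11.01 and 11.12 on IL-10+ and 11.73 and 11.81 on IL-10- arrays, made up most of the NK sum. The NK markers Ncr1 (-0.10) and Klra1 (-0.09) did not pass. The 5' probe sets of 4 control transcripts were also higher on IL-10+ arrays, by 0.68 to 2.16, and their 3' probe sets differed by -0.22 to 0.17. Control probe sets of mouse b-actin differed by 1.12 (5') and 0.40 (3'), and those of Gapdh by 0.88 and 0.02. The part of the marker shifts and of the 5' difference in the results was not tested. Where a member's probe sets lie on its transcript is not given in the sources used here. Fewer cells of a type and less RNA per cell cannot be told apart in such samples.

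Cdk4 fell in IL-10+ cells on all 3 of its probe sets, and Cdkn1b rose on both of its own. Ccnd3 and Rb1 fell, and Cdkn2c rose, on the brightest probe set of each, the one with the highest mean over the arrays. Ccnd2 rose on 5 of 7 probe sets. Cdk6 gave the largest difference of the 26, on its dimmest probe set, while its brighter ones did not pass. Of the 26 probe sets, 11 were higher and 5 lower, beside 13.6% and 16.2% of all probe sets, and 10 did not pass. The median difference of the 26 was 0.12, beside 0.01 over all probe sets. On median centring 9 were higher and 7 lower, and without IL-10+ replicate 2 the counts were 7 and 5. Of the 22 at or above the median level of the array 10 were higher and 5 lower, beside 20.9% and 29.8% of all such probe sets. Both IL-10+ arrays lay above both IL-10- arrays in 14 of the 26 and below them in 8, beside 32.5% and 30.5% of all probe sets.

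**Figure D1:**
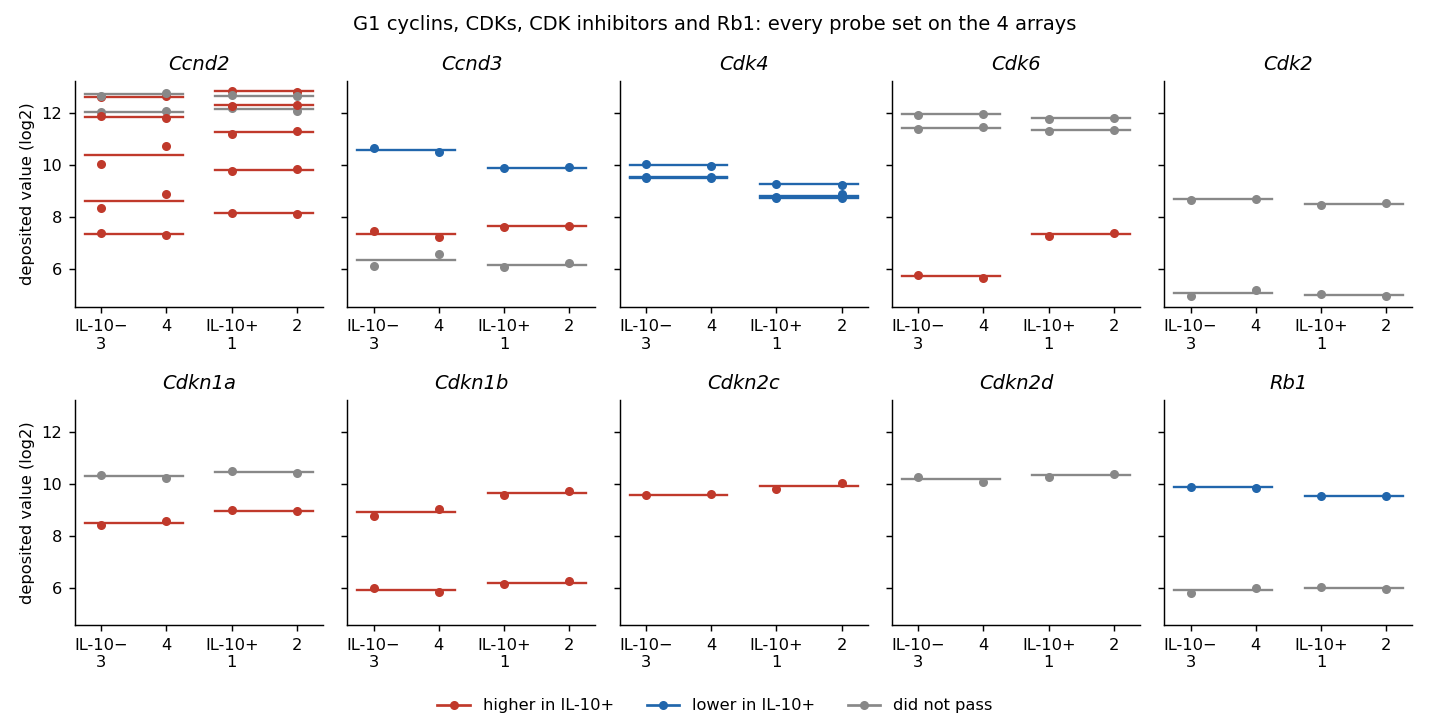
Deposited values (log2, vertical axes) of all 26 probe sets on the 2 IL-10- and 2 IL-10+ arrays, 1 panel per gene. Points are arrays, bars are group means, and red, blue and grey mark probe sets that were higher in IL-10+ cells, lower, or did not pass. The 3 Cdk4 probe sets drop together, and 1 of 3 Cdk6 probe sets climbs from 5.79 and 5.69 to 7.30 and 7.41.

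The stretches of 250 bases before the transcription starts of Cdk4 and Ccnd3, which fell, and of Cdkn1b and Cdkn2c, which rose, are shown so that the genes that moved apart can be set side by side. They are RefSeq sequences of build GRCm38.p6, written 5' to 3' on the gene's strand and ending just before the start. RefSeq promoters were at hand for 8 of the 10 genes, all but Ccnd2 and Rb1. Capitals mark matches, on either strand, to 4 motifs chosen after the values were known. These were E2F (TTTCCCGC, TTTCGCGC, TTTGCCGC or TTTGGCGC), the E-box CACGTG, a FOXO motif (TGTTTAC) and the GC box GGGCGG, and E2F and GC box matches can share bases.
Cdk4 (chr10:127063285-127063534, + strand): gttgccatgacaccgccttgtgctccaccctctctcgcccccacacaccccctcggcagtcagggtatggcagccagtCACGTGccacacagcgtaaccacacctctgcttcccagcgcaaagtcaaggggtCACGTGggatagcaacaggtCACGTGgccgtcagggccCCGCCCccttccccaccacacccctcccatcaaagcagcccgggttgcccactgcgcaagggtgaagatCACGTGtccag
Ccnd3, start 1 (chr17:47504801-47505050, + strand): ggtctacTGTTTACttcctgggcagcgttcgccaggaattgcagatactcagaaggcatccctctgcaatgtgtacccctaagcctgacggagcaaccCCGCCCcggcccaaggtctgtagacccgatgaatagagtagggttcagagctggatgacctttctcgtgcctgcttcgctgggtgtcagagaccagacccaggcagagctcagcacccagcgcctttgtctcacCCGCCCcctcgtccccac
Ccnd3, start 2 (chr17:47593217-47593466, + strand): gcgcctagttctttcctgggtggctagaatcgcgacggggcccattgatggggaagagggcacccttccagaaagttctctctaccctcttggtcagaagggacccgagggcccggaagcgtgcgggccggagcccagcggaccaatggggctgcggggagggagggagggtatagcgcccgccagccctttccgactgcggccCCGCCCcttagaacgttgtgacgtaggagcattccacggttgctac
Cdkn1b (chr6:134920151-134920400, + strand): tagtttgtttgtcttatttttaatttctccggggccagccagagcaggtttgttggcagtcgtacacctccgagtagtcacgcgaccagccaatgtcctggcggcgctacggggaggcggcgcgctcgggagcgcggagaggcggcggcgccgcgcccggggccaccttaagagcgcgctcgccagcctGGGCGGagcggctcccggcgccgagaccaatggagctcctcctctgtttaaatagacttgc
Cdkn2c, start 1 (chr4:109666757-109667006, - strand): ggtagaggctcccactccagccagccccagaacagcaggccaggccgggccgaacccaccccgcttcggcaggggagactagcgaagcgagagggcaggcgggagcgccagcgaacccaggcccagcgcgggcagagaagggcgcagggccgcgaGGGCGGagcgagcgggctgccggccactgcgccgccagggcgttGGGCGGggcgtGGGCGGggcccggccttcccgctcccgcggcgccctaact

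Cdk4 held 4 E-boxes, with first bases 172, 118, 98 and 11 bases before the start, and 1 GC box. An E-box occurs in 6.02% of the 32851 promoters of this length, and 4 or more occur in 7 promoters of 5 genes. Ccnd3 held a FOXO motif before its first start (3.17% of promoters) and GC boxes before both. In Cdkn1b and before the first start of Cdkn2c the matches were GC boxes, which 32.7% of promoters hold. The second start of Cdkn2c, not shown, had no match. Of the others, Cdk6 had 1 E-box and Cdk2 had 1 E2F motif (1.86% of promoters). Cdk2, Cdkn2d and the second start of Cdkn1a also held GC boxes. A match describes letters and not a bound site.

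Ccnd2, the D cyclin that lymphocytes induce on stimulation, was read by 7 probe sets. Its brightest, 1416122_at, read 12.85 and 12.84 in IL-10+ and 12.62 and 12.65 in IL-10- samples. The groups did not overlap, and the rise was 0.21 ± 0.06 (SE, adjusted p = 0.0365). It was 0.32 after quantile normalization. On median centring the call was lost (0.14, adjusted p = 0.172), as it was when IL-10+ replicate 1 (0.207), IL-10+ replicate 2 (0.177) or IL-10- replicate 3 (0.0576) was left out. The largest rise was that of 1416123_at, with 9.77 and 9.87 against 8.35 and 8.89, a difference of 1.20 ± 0.15 (adjusted p = 0.000891). This is a fold of 2.30, or 3.32 if the logs are natural. Its IL-10- arrays lay further apart than its IL-10+ arrays, and both read below the IL-10+ pair.

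The other 3 probe sets of Ccnd2 that rose spanned the level of the array. 1416124_at rose by 0.81 ± 0.07 from 7.40 and 7.32 to 8.18 and 8.15, and 1430127_a_at rose by 0.45 ± 0.06 from 11.90 and 11.83 to 12.30 and 12.33. 1448229_s_at read 11.22 and 11.32 against 10.06 and 10.73, a rise of 0.87 ± 0.19 that was 0.54 without IL-10- replicate 3, its lower array. Its suffix s marks probes shared between transcripts. These 3 and 1416123_at kept their calls under each other normalization, prior and left-out array, and under each filter that kept the probe set. The 2 that did not pass were 1434745_at, at 0.08 (95% interval -0.08 to 0.24), and 1455956_x_at, at -0.06 (-0.23 to 0.10), whose suffix x marks probes that can bind other sequences. The size of the difference in Ccnd2 thus ran from -0.06 to 1.20 with the probe set.

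Ccnd3, the other D cyclin of T-cells, went down on its brightest probe set and up on the next. 1415907_at read 9.91 and 9.92 in IL-10+ and 10.66 and 10.51 in IL-10- samples, a fall of 0.67 ± 0.07 (adjusted p = 0.000425). The groups lay well apart, and the fold was 1.59 (1.96 if natural logs). 1444323_at, built on an expressed sequence tag, read 7.63 and 7.69 against 7.46 and 7.24 and was 0.31 ± 0.08 higher (adjusted p = 0.0272). It lost its call without IL-10+ replicate 1 (0.0789), IL-10+ replicate 2 (0.135) or IL-10- replicate 4 (0.20 higher, 0.0637), whereas the fall of 1415907_at passed at 0.05 in every alternative run. 1438805_at differed by -0.18 (95% interval -0.50 to 0.15) with overlapping groups, and passed as lower without IL-10- replicate 3 (-0.40, adjusted p = 0.00257). Of the 10 D cyclin probe sets 6 were higher, 5 of them of Ccnd2, and 1 was lower, beside 13.6% and 16.2% of all probe sets.

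Cdk4, a kinase partner of the D cyclins, fell by much the same amount on all 3 of its probe sets. 1422441_x_at read 9.29 and 9.25 in IL-10+ and 10.05 and 9.99 in IL-10- samples. 1422440_at read 8.78 and 8.90 against 9.53 on both IL-10- arrays, and 1422439_a_at read 8.74 and 8.76 against 9.54 and 9.57. Each probe set had both IL-10+ arrays below both IL-10- arrays. The differences were -0.75, -0.69 and -0.80, with adjusted p-values of 0.00015, 0.000295 and 9.7e-05, and all 3 calls held at 0.05 in every alternative that kept the probe set. The largest was a fold of 1.75 lower in IL-10+ cells (2.23 if natural logs), under the 2-fold of the study's methods on the log2 reading.

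Cdk6, the second kinase of the D cyclins, split by probe set. 1460291_at, built on the RefSeq transcript, read 7.30 and 7.41 in IL-10+ and 5.79 and 5.69 in IL-10- samples. This was a rise of 1.61 ± 0.07 (adjusted p = 1.33e-05), a fold of 3.06 (5.03 if natural logs), and it passed at 0.05 in every alternative run. The IL-10- values lie below the medians of their arrays (6.35 and 6.31), at levels where variance stabilization compresses values, so the fold is only that of the deposited values. The brightest, 1455287_at, read 11.80 and 11.82 against 11.95 and 11.97, and 1435338_at read 11.34 and 11.37 against 11.39 and 11.49. On both of these the IL-10+ arrays lay slightly below, by -0.15 (95% interval -0.30 to -0.01, adjusted p = 0.108) and -0.09 (-0.24 to 0.07). Median centring made the first of them a fall (-0.23, adjusted p = 0.0277), and quantile normalization turned the second to 0.07. Averaged over its 3 probe sets, Cdk6 rose by 0.46. Of 18192 other genes, the brightest probe sets nearest to 1460291_at over the 4 centred arrays were those of Cxcr6, a chemokine receptor (1.59), Il10 (1.62) and Snx9, a protein of endocytosis (1.55). The measure was the Euclidean distance, at 0.048, 0.098 and 0.103, and over 4 arrays it says little more than that these differences are of like size.

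Cdk2, the kinase partner of cyclin E, did not pass on either probe set. 1416873_a_at read 8.48 and 8.54 in IL-10+ and 8.66 and 8.72 in IL-10- samples, a difference of -0.18 (95% interval -0.33 to -0.03, adjusted p = 0.0764). The groups did not overlap, and it passed as lower on median centring (-0.26, adjusted p = 0.0207) and without IL-10- replicate 3 (-0.21, 0.0484). The dim 1447617_at differed by -0.07 (-0.27 to 0.13). Of the 8 kinase probe sets 1 was higher, near the 13.6% of all probe sets, and 3 were lower, all of Cdk4 (16.2% of all).

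Cdkn1b, which encodes the inhibitor p27Kip1, rose on both probe sets. 1434045_at read 9.58 and 9.72 in IL-10+ and 8.76 and 9.05 in IL-10- samples. The gap between the groups exceeded the spread within either, and the rise was 0.75 ± 0.10 (adjusted p = 0.00128), a fold of 1.68 (2.11 if natural logs) that passed at 0.05 in every alternative run. 1419497_at read 6.15 and 6.26 against 6.01 and 5.83, a rise of 0.29 ± 0.08 (adjusted p = 0.0347). This second call was lost on quantile normalization (0.23, adjusted p = 0.07) and median centring (0.0735), and without IL-10+ replicate 1 (0.0669), IL-10+ replicate 2 (0.204) or IL-10- replicate 4 (0.19 higher, adjusted p = 0.088).

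Cdkn1a, which encodes p21Cip1, a target of p53, rose on 1 of 2 probe sets. 1421679_a_at read 8.98 and 8.97 in IL-10+ and 8.43 and 8.58 in IL-10- samples, a rise of 0.47 ± 0.07 (adjusted p = 0.00214) that passed at 0.05 in every alternative run. The brighter 1424638_at read 10.48 and 10.43 against 10.36 and 10.22, a difference of 0.17 (adjusted p = 0.124). Its groups did not overlap, and it passed without IL-10- replicate 3 (0.24, adjusted p = 0.0264) and after quantile normalization (0.28, 0.0381).

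The INK4 inhibitors had 1 probe set each. Cdkn2c read 9.82 and 10.03 in IL-10+ and 9.56 and 9.62 in IL-10- samples, a rise of 0.34 ± 0.08 (adjusted p = 0.0183) that was lost without IL-10+ replicate 2 (0.23, adjusted p = 0.152). Cdkn2d read 10.28 and 10.38 against 10.28 and 10.08, a difference of 0.15 (95% interval -0.04 to 0.35, adjusted p = 0.229). The lower IL-10+ and the upper IL-10- array were equal to 2 decimals, and it passed without IL-10- replicate 3 (0.25, 0.0244). Of the 6 probe sets of the 4 inhibitors 4 rose, beside 13.6% of all probe sets, and none fell (16.2% of all). The calls of 1419497_at and of Cdkn2c were among those lost when an array was left out.

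Rb1, the substrate on which the D cyclin kinases act, fell on its brighter probe set. 1417850_at read 9.52 on both IL-10+ arrays and 9.89 and 9.84 on the IL-10- arrays, a fall of 0.34 ± 0.06 (adjusted p = 0.00474) that passed at 0.05 in every alternative run. The dim 1444400_at had overlapping groups and differed by 0.09 (95% interval -0.10 to 0.28).

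**Figure D2:**
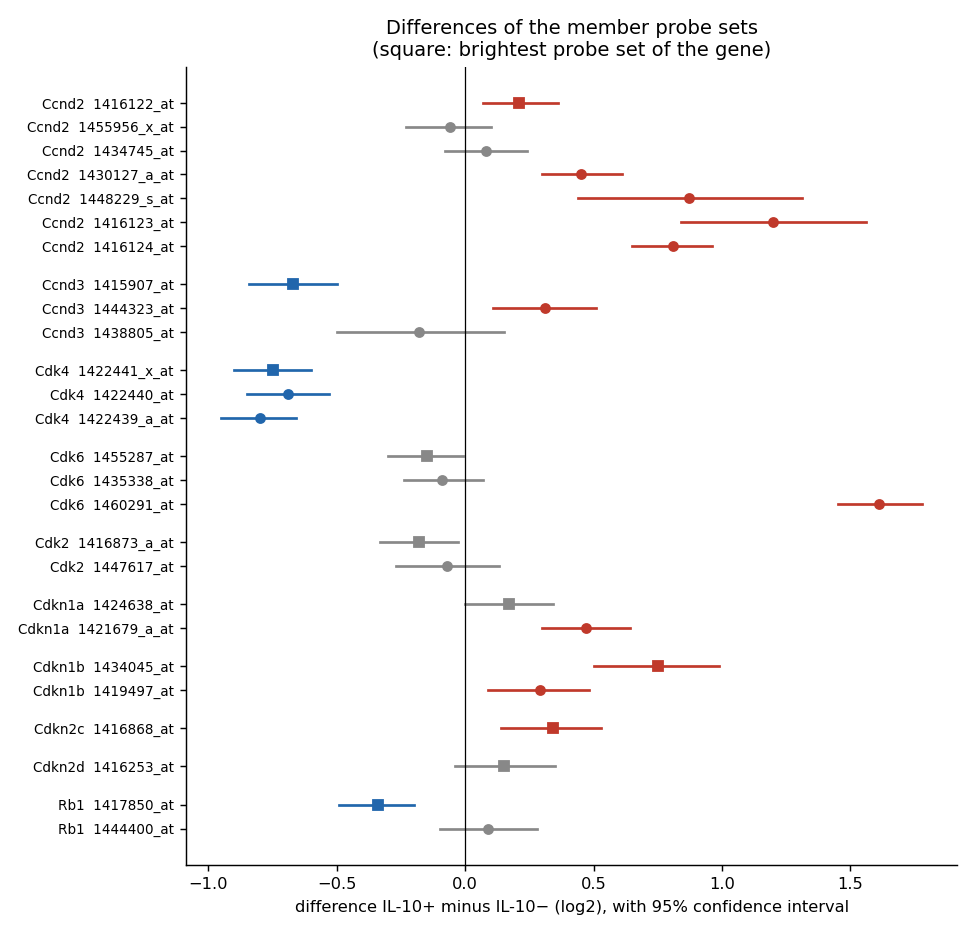
IL-10+ minus IL-10- difference of each member probe set (horizontal axis, log2) with its 95% confidence interval from limma, grouped by gene. Cdk4 lies at -0.80 to -0.69, Cdkn1b at 0.29 and 0.75, and Ccnd2 and Cdk6 spread from near 0 to 1.20 and 1.61.

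By the brightest probe set of each gene, 3 of the 10 genes were higher (Ccnd2, Cdkn1b and Cdkn2c), 3 were lower (Ccnd3, Cdk4 and Rb1) and 4 did not pass, with a median of 0.00. Over all 18193 genes read this way 8.37% were higher and 22.9% lower, with a median of -0.01. Without IL-10+ replicate 2 the higher count was 1, and on median centring Cdk2 and Cdk6 joined the lower genes, giving 5, while Ccnd2 left the higher ones. Averaging all probe sets of each gene gave 5 higher and 2 lower, since Cdk6 (0.46) and Cdkn1a (0.32) then rose, Rb1 did not pass (-0.13, adjusted p = 0.121) and Ccnd3 fell by 0.18 (adjusted p = 0.0395). The shares of 8.37% and 22.9% are of brightest probe sets, and the shares of all genes under such averaging were not counted. The stricter threshold of the study's methods (2-fold or more, adjusted p below 0.001) was met as higher by 1416123_at of Ccnd2 and 1460291_at of Cdk6, as it was by 1.72% of all probe sets. It was met as lower by none of the 26 (0.575% of all). With natural logs the counts were 3 higher and 2 lower, beside 1516 and 988 of all 45037 probe sets.

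The probe sets of 1 gene often disagreed in size. Of the 8 members with several probe sets, the dimmest differed more upwards than the brightest in 6 (75%), and over all 9010 such genes it did so in 60.9%. The median span between the highest and lowest difference of a gene was 0.45 in members and 0.29 in all genes. Ccnd3 alone had calls in both directions, 1 of 8 members (12.5%) beside 12% of all genes. The share of calls also moved with the level. Between levels of 8 and 10, 20.8% of all probe sets were higher and 40.6% lower, and 4 and 4 of the 9 member probe sets there. Between 6 and 8 these were 18.6% and 14.8%, with 4 of 5 member probe sets higher, and between 4 and 6 they were 3.61% and 1.98%, with neither of 2. Between 10 and 12 they were 17.9% and 45.6%, with 1 higher and 1 lower of 6 member probe sets, and between 12 and 14 they were 9.97% and 39.7%, with 2 of 4 higher and none lower.

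**Figure D3:**
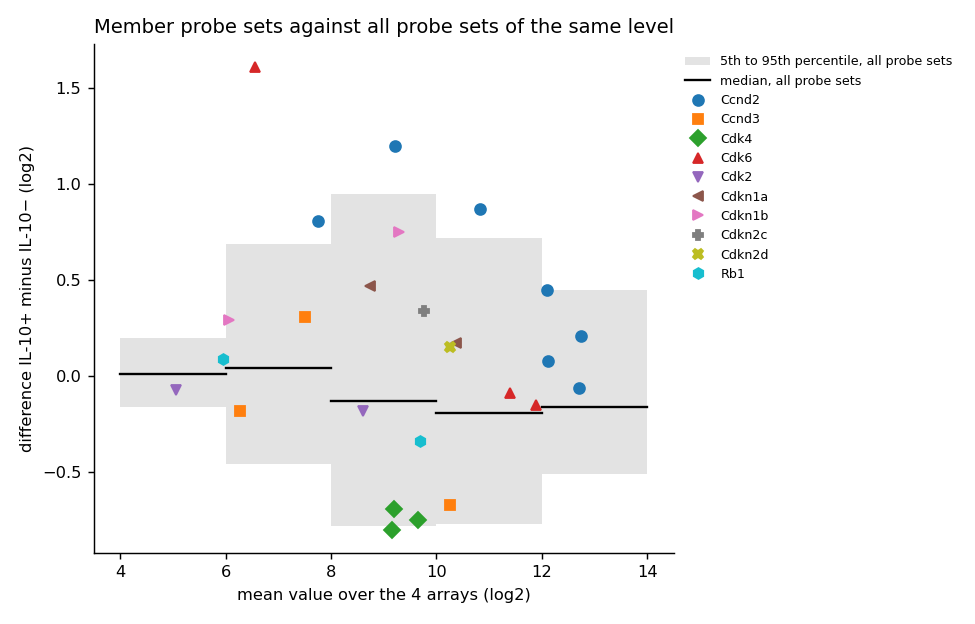
Difference between IL-10+ and IL-10- arrays (log2, vertical axis) against the mean value over the 4 arrays (log2, horizontal axis), with member probe sets as points over the median and the 5th to 95th percentile band of all probe sets of the same level. Of the 26 points 20 lie inside the band, 5 on or above its upper edge (1460291_at of Cdk6 and 4 probe sets of Ccnd2) and 1 below it (1422439_a_at of Cdk4).

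The genes around the members were read by their brightest probe sets. Of 66 measured genes in 5 lists, 6 were higher and 39 lower, with a median of -0.37. Over all genes read this way 8.37% were higher and 22.9% lower, with a median of -0.01. Without IL-10+ replicate 2 the higher count was 3. Over all 142 probe sets of these genes 15 were higher and 59 lower, beside 13.6% and 16.2% of all probe sets on the array. Of the 66 genes 7 had a probe set called against their brightest one, and 12% of all genes with several probe sets had calls both ways. Among 17 E2F targets of S phase entry, 15 fell by the brightest probe set and none rose, led by Mcm7 (-1.07), Cdc6 (-0.80), Mcm2 (-0.71) and Mcm3 (-0.70). Pcna, the sliding clamp, and Tyms, an enzyme of thymidylate synthesis, differed by -0.20 and 0.10 and did not pass. The brightest probe sets of Mcm7, Mcm2 and Mcm3 carry the suffix s, and among the 11 of these genes whose brightest probe set has neither suffix 9 were lower. Dimmer probe sets of Mcm3 (1.08, adjusted p = 0.000267), Rrm1 (1.32, 0.00101) and Rrm2 (0.53, 0.00089) were higher. Of the 42 probe sets of this list 3 were thus higher and 27 lower, beside 13.6% and 16.2% of all probe sets.

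Among 12 pocket proteins, E2F and DP factors 7 fell by the brightest probe set and none rose, beside 22.9% and 8.37% of all genes. The largest falls were in E2f2 (-0.71), an activator of the E2F targets, E2f7 (-0.65) and E2f8 (-0.61), which repress them, and Rbl2 (-0.53), a relative of Rb1. The dimmer probe set of E2f8 was higher (0.54, adjusted p = 0.000563). Those of E2f2 (-0.09) and Rbl2 (0.13) did not pass, so the falls of these genes were seen on the brightest probe set only. Among 14 upstream regulators 9 fell, with Klf2, a transcription factor of quiescent T-cells, at -1.51, Stat5b, which acts downstream of IL-2, at -1.32, Foxo1, an activator of Cdkn1b, at -1.02, and Smad3, which acts downstream of TGF-β, at -0.79. Dimmer probe sets of Smad3 (0.29, adjusted p = 0.03) and Stat5a (0.64, 0.0153) were higher, against their brightest ones. Foxo1 differed by -0.44, -0.29 and 0.12 on its dimmer probe sets, the last of which did not pass. The fall of Stat5b was seen on its brightest probe set only. Its dimmer one read 7.90 and 7.93 in IL-10+ and 7.91 and 7.92 in IL-10- samples and did not pass. Bmi1, a Polycomb repressor, was 0.27 higher, which was lost on median centring and without either IL-10+ array, and Myc differed by -0.04 and did not pass.

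Among 12 subunits and partners of ubiquitin ligases that act on G1 regulators, 7 fell and 3 rose, beside 22.9% and 8.37% of all genes. Fbxo31 (-0.95), Ddb1 (-0.90), Ubac1 (-0.67) and Rnf123 (-0.63) led the falls, and the last 2 form a complex that degrades Cdkn1b protein. Skp2, the ligase subunit that recognises Cdkn1b protein in later G1, rose by 0.50, Fzr1 rose by 0.58, and Rbx1 rose by 0.43 but not without IL-10+ replicate 2 (adjusted p = 0.103). In the last list, of 11 genes with cyclins D1 and E, other inhibitors and CDK activators, 2 rose and 1 fell. Over all genes read this way 8.37% were higher and 22.9% lower. Cdc25a, a phosphatase that activates Cdk2, rose by 0.55 (adjusted p = 0.0112) on its brightest probe set and fell by 0.63 (0.000357) on the next. Ccne2, a cyclin E, rose by 0.38. Ccne1, the other cyclin E, fell by 0.69 on a probe set of suffix x. The dimmer probe set of Ccne1, with neither suffix, was also lower, at -0.83 (adjusted p = 0.00054). The rise of Ccne2 was lost without IL-10+ replicate 2 (0.27, adjusted p = 0.148), which left 1 of the 11 higher.

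**Figure D4:**
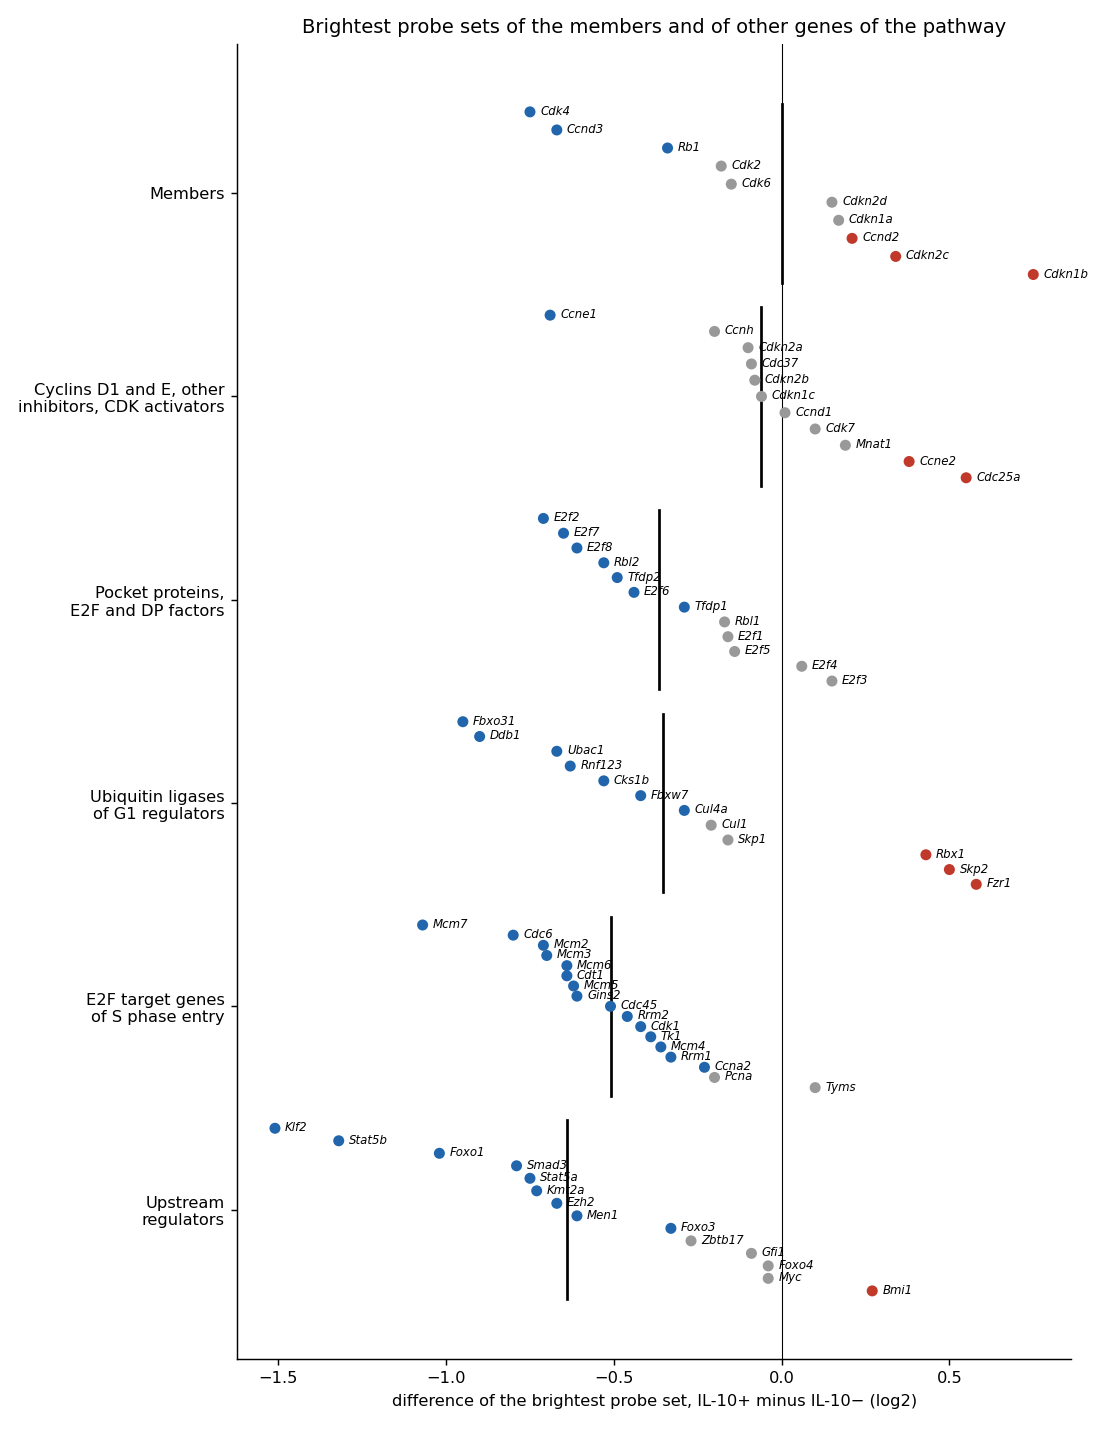
Difference of the brightest probe set of each member and of each gene in the 5 lists (log2, horizontal axis), with red, blue and grey for higher in IL-10+ cells, lower and not passed, and a black bar at each group's median. The E2F targets lie at -1.07 to 0.10 with a median of -0.51, and the members spread from -0.75 to 0.75 around 0.00.

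**Figure D5:**
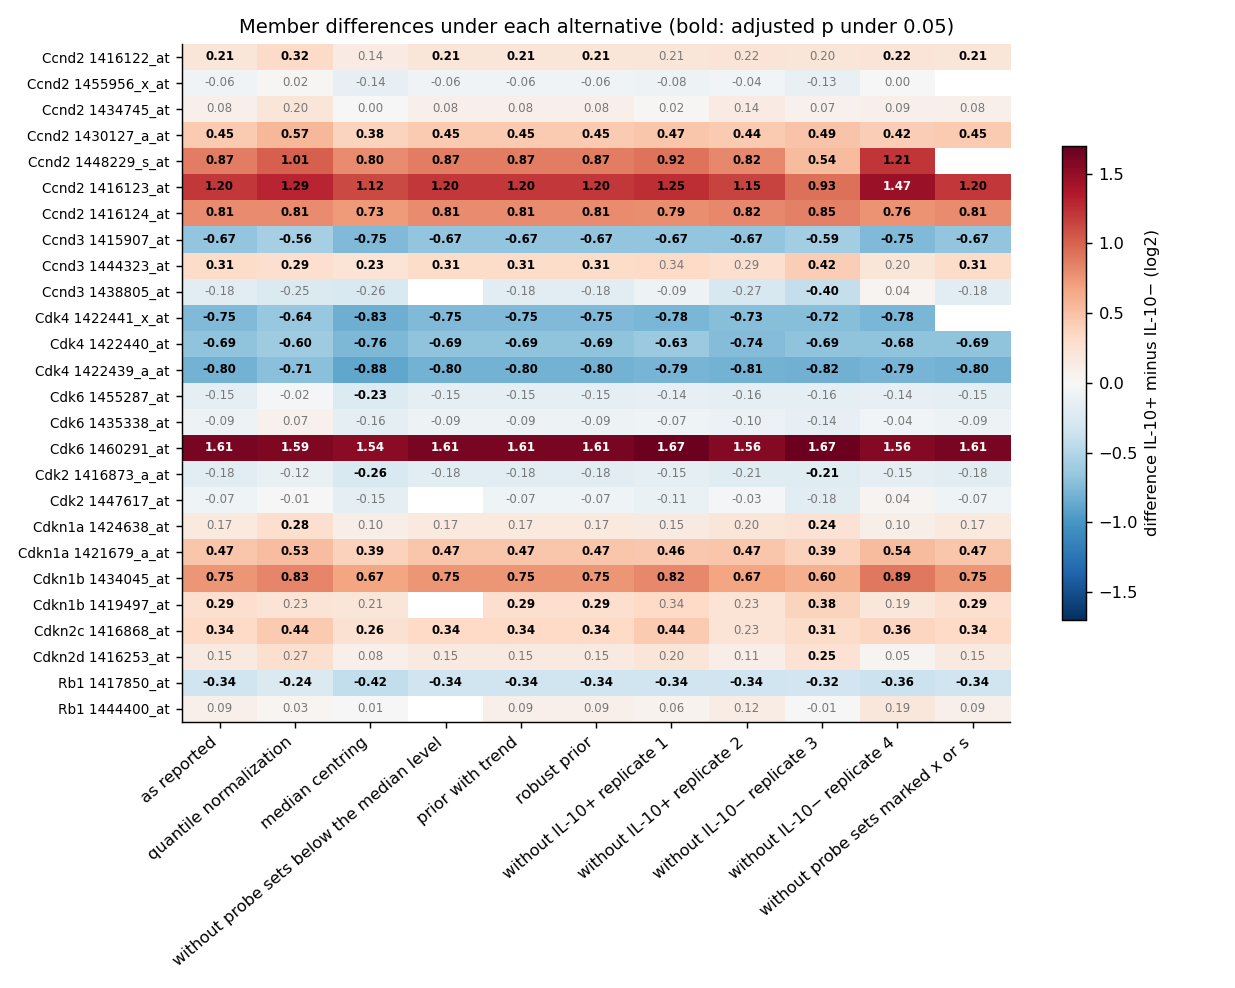
Difference of each member probe set (rows; log2, printed and coloured) in the reported analysis and under each alternative (columns), with bold type where the adjusted p was under 0.05. The rows of Cdk4 stay negative and bold in every column where they have a value, and the row of 1460291_at of Cdk6 stays positive and bold.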

How the data were processed

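Biotin-labelled cRNA of 4 samples was hybridized to Affymetrix mouse genome arrays, 1 per sample. The labels give 100 ng of total RNA for labelling, and the methods give another amount. The authors normalized the signal intensities by variance stabilization in Bioconductor, a step that compresses dim values, and deposited, for each array, 1 value per probe set, which was taken as log2. How probes were summarised is not given in the sources used here.

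Of 45101 probe sets, 64 controls were set aside and 45037 were compared with limma 3.58.1 in R 4.3.3 (lmFit, eBayes, two-sided, Benjamini-Hochberg), with 5.44 prior and 2 residual degrees of freedom. The step was tested on simulated data. With 2 arrays against 2, an exact permutation test cannot go below 0.333. Arrays have no depth, and their number limits the precision. The platform annotation, which can be old, gave 1 gene for 34945 probe sets, several for 932, which named no gene, and none for 9160.

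All members were named with every probe set, with Il10 as a check of the sort, up to 4 called genes of each list by size, and the 3 genes nearest to the member probe set of largest difference; other list genes named were chosen after their values were seen. Members and lists were chosen with earlier results of these data known. As alternatives served median centring, quantile normalization, leaving out dim probe sets or those of suffix x or s, natural logs, a trended or robust prior, gene means, the threshold of the methods and leaving out each array. Tables and figures were made with Python 3.11.15, pandas 2.3.3 and matplotlib 3.10.9.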

Additional observations from a re-analysis of the deposited data

Results flagged for a closer look

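The control transcripts that are added to the RNA to follow its labelling carried a signal that is no part of the comparison of genes. Their 5' probe sets read higher on the IL-10+ arrays by a median of 1.22 on the log2 scale over 4 transcripts. The middle probe sets differed by 0.82 and the 3' probe sets by 0.04. Control probe sets of mouse transcripts also read higher at the 5' end, by 1.12 for b-actin and 0.88 for Gapdh, with 0.40 and 0.02 at the 3' end. The relation of this difference to those of the member genes was not tested.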

How the results depend on the processing

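The 26 member probe sets gave 279 differences under the alternatives, of which 253 kept their direction and side of the threshold, 13 lost a call (4 probe sets), 7 gained one (5) and 6 changed sign (5), none of the last called. The 279 include the natural log reading of each probe set, which only rescales a difference, so that its direction and call were fixed in advance. On quantile normalization 1455956_x_at of Ccnd2 (0.02) and 1435338_at of Cdk6 (0.07) changed sign. The others changed sign without an IL-10- array, with ranges over the left-out arrays of -0.13 to 0.00 for 1455956_x_at, -0.40 to 0.04 for 1438805_at of Ccnd3, -0.18 to 0.04 for 1447617_at of Cdk2 and -0.01 to 0.19 for 1444400_at of Rb1. The cause was not tested. At 2-fold and an adjusted p under 0.001, 2 member probe sets were higher and 0 lower, 0 and 0 member genes by brightest probe set, 0 and 4 of the other pathway genes, and 775 and 259 of all probe sets; this threshold is stricter by construction. Median centring gave 5 lower member genes by brightest probe set, and means over probe sets gave 5 higher, with no share of all genes counted for such means. Leaving out each array gave 7 to 12 higher and 5 to 7 lower member probe sets, 1 to 4 higher and 3 to 4 lower member genes by brightest probe set, 3 to 8 and 32 to 46 other pathway genes, and 3994 to 7427 and 4676 to 8192 of all probe sets; the lone array of a group was then assumed to vary like the other group. Quantile normalization moved the median difference of all probe sets from 0.01 to -0.02 and median centring to -0.07. No paired analysis was possible because the groups share no replicate numbers.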

Other observations

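Beyond the G1 members and the lists around them, 31 other genes of the cyclin and CDK families were measured, a group chosen after values were seen. By their brightest probe sets 5 were higher in IL-10+ cells and 9 lower, with a median of -0.04, beside 8.37% higher and 22.9% lower over all genes. Among those that fell, Ccnk, the cyclin of the transcriptional kinase Cdk12, differed by -1.03, and Cdk12 itself by -0.56. Ccnb2, a mitotic cyclin, fell by 0.78, and Cdk19, a kinase of the Mediator complex, fell by 0.70. Cdk5 and Cdk17 rose by 0.60 each. Without IL-10+ replicate 2 the counts were 2 and 6, without IL-10+ replicate 1 they were 3 and 6, and median centring gave 3 and 13.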
